A study of Bos taurus with 36 samples.

Results

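The genes described here encode the complement components, their regulators and the collectins, read in bovine liver after infusion of bacterial lipopolysaccharide (LPS) into the udder. Members were found by gene symbol: 33 of 37 listed genes were named alone by 1 or more probe sets, 47 probe sets in all, out of 9155 genes and 24128 probe sets on the array. The receptors C3AR1 and C5AR1, the membrane inhibitor CD59 and the collectin COLEC10 matched no probe set and were not analysed here. The measured members comprise 17 genes of the classical and lectin pathways, 5 of the alternative pathway, 9 of the terminal pathway with its fluid-phase inhibitors, and 2 membrane regulators.

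Liver biopsies came from 8 healthy Holstein-Friesian cows milked in their first lactation and 9 to 12 weeks past calving. Each cow received 200 µg of E. coli LPS through the right front teat and saline alone through the left front teat. All 8 cows were biopsied at -22, 9 and 48 hours relative to the infusion, and cows 1, 3, 7 and 8 also at 3, 6 and 12 hours, which gave 36 arrays of 1 cow at 1 time point each. The control is the liver at -22 hours: every cow was given LPS, so on these arrays time, repeated biopsy and LPS cannot be told apart. The paper reports a control study of saline-infused cows, in which biopsy affected neither clinical measures nor a selected set of genes. Those cows were not put on arrays.

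Complement is a cascade of plasma proteins, made largely by hepatocytes, that tags microbes and can pierce their membranes. It starts when C1q binds antibody (classical), when mannose-binding lectins, other collectins or ficolins bind microbial sugars and carry the MASP proteases (lectin), or when C3 turns over on a surface (alternative). These routes meet at the cleavage of C3 and then C5, after which C5b to C9 assemble the membrane attack complex, and soluble and membrane-bound regulators restrain each step.

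Values are log2 values of a probe set, and a gene is described by its brightest probe set. A log2 change is the mean of an hour minus the mean of all 8 cows at -22 hours, so at 3, 6 and 12 hours 4 cows are set against 8, and 8 of 99 member changes at these hours lay outside the range of the 4 cows' own changes. It is given with the standard error (SE) of the limma fit, and a change was called when its Benjamini-Hochberg adjusted p, taken over the whole array, was below 0.05. Array medians lay between 4.15 and 4.38, and all values between 0.69 and 16.37. Along the 9 hour change of all probe sets, the array of cow 2 at 48 hours stood 24.8% of the way and that of cow 1 at -22 hours 10.3%, while the others of these 2 time points stood between -3.08% and 4.27%. The hepatocyte markers were bright as labelled, with ALB at 16.14 on average at -22 hours, and the erythrocyte markers HBA and ALAS2 lay near the lower end at 2.30 and 2.28. The third erythrocyte marker, HBB, ran from 2.89 to 3.46 with a median of 3.14 at -22 hours. It ran from 3.04 to 6.45 with a median of 3.22 at 9 hours, and from 3.04 to 4.46 at 48 hours. The part of blood in the biopsies was not tested. Biopsies mix cell types, so fewer cells of a type and less RNA per cell cannot be told apart.

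At 9 and 12 hours more members were lower than higher, as at 6 hours, where the lower share was near that of all genes. At 3 and 48 hours more were higher. At 3 hours 4 of the 33 genes were higher and 0 lower, against 4.47% and 2.57% of all genes. At 6 hours 3 were higher (9.09%) and 9 lower (27.3%), where 26% and 29.3% of all genes were. At 9 hours 3 members were higher and 20 were lower (60.6% of them), beside 36.6% of all genes higher and 28.4% lower, and at 12 hours 3 were higher and 18 lower (54.5%), beside 30.9% and 22.2%. By 48 hours 9 members were higher and 3 lower, beside 15% and 16.2% of all genes. The median log2 change of the members was 0.16, -0.08, -0.34, -0.30 and 0.11 at 3, 6, 9, 12 and 48 hours, beside -0.02, 0.02, 0.04, 0.02 and 0.00 over all genes. Of the 20 genes lower at 9 hours, 18 were lower at 12 hours as well, and at 48 hours 5 of the 20 were higher than at -22 hours, 12 were not called and 3 were still lower. At 3 hours 13 genes were higher and 1 lower at an unadjusted p below 0.05 in limma. The share of all genes at that unadjusted threshold was not counted, so these counts stand without a background. By role, the classical and lectin group had 1 gene higher and 12 lower at 9 hours, the alternative group 0 and 2, the terminal group 0 and 6 and the membrane regulators 2 and 0. At 9 hours 3 members lay wholly above their -22 hour range and 7 wholly below, beside 20.1% and 17.6% of all genes. Of the 8 hepatocyte markers, 1 was higher and 5 were lower at 9 hours, and the log2 of their summed level ran from 17.59 to 17.72 at 9 hours, against 17.63 to 17.92 at -22 hours; the part of hepatocyte content in these counts was not tested. Leaving out cow 7 reduced the genes higher at 3 hours to 2, and leaving out cow 2 reduced those lower at 48 hours to 1.

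**Figure D1:**
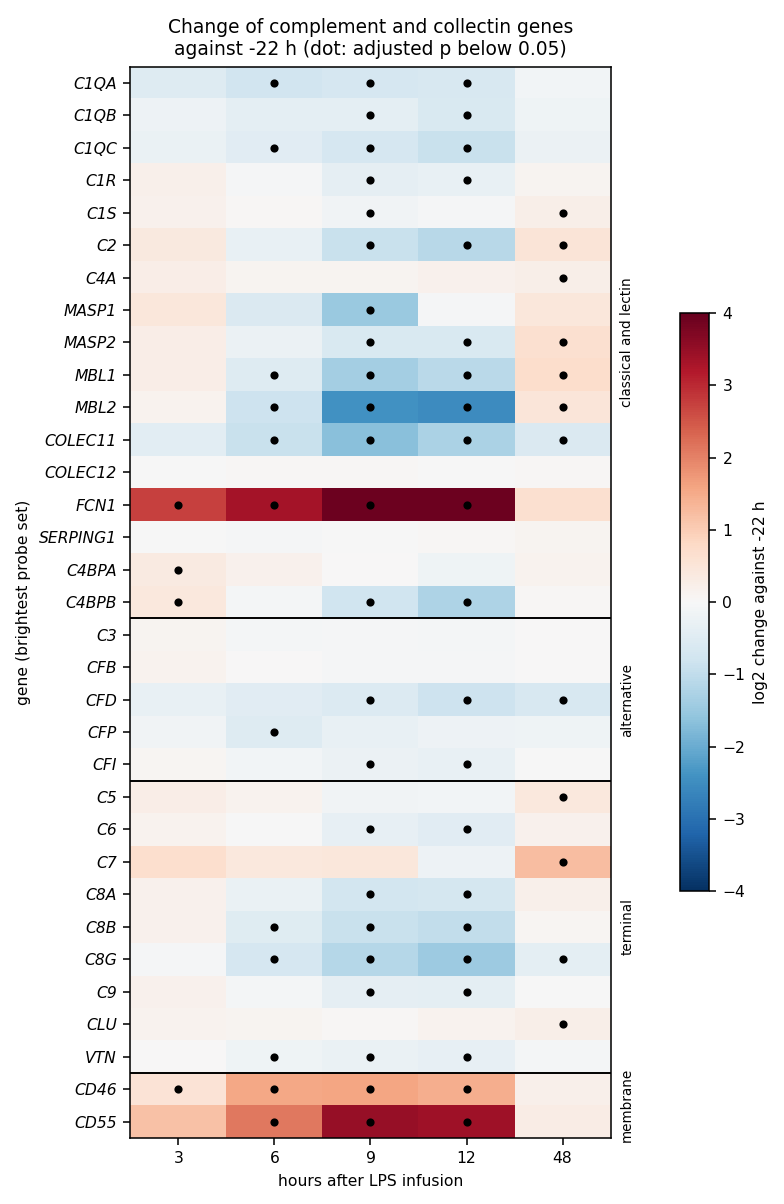
Log2 change of the 33 member genes against -22 hours (colour), by hour after LPS infusion (columns) and gene (rows, in 4 role groups separated by lines, with "membrane" for the membrane regulators). Dots mark adjusted p below 0.05; the blue block at 9 and 12 hours holds most of the calls, while FCN1, CD46 and CD55 are red from 6 to 12 hours.

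Among the plasma collectins, MBL1, MBL2 and COLEC11 fell. MBL2, a mannose-binding lectin that opens the lectin pathway, ran from 12.11 to 12.86 with a median of 12.48 at -22 hours and lay between 12.59 and 12.72 in the 4 cows at 3 hours, where its change of 0.15 (SE 0.18) was not called. At 6 hours its 4 values were 11.49, 11.55, 11.70 and 11.91, at 9 hours the 8 values ran from 9.55 to 10.66 with a median of 10.05, and at 12 hours the 4 values were 9.40, 9.71, 10.12 and 10.78. No cow's value at 6, 9 or 12 hours reached the lowest at -22 hours. The log2 change was -0.84 (SE 0.18, adjusted p 0.000259) at 6 hours, -2.43 (SE 0.15, adjusted p 2.4e-15) at 9 hours and -2.50 (SE 0.18, adjusted p 3.83e-13) at 12 hours, so that the level at 12 hours was 5.66-fold below that at -22 hours. At 48 hours MBL2 ran from 12.86 to 13.28 with a median of 12.94, higher than at -22 hours in each of the 8 cows, with a change of 0.50 (SE 0.15, adjusted p 0.0167).

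MBL1, the other mannose-binding lectin, was also lower at 9 and 12 hours and higher at 48 hours. It ran from 9.23 to 10.34 with a median of 10.09 at 9 hours, against 10.87 to 11.67 with a median of 11.37 at -22 hours, and the ranges were apart. Its change was -1.37 (SE 0.15, adjusted p 2.62e-09) at 9 hours, -1.07 (SE 0.19, adjusted p 1.31e-05) at 12 hours and 0.69 (SE 0.15, adjusted p 0.00152) at 48 hours, when all 8 cows were above their own -22 hour value. The second probe set of MBL1 gave -1.49, -1.28 and 0.46 at these hours. The smaller fall of MBL1 at 6 hours, -0.50 (adjusted p 0.0281), was lost without cow 1, 3, 4 or 8 (adjusted p 0.0597 to 0.0946).

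COLEC11, a collectin of liver and kidney that also binds MASP proteases, fell as well. Its values at 9 hours ran from 7.83 to 8.88 with a median of 8.64, against 9.34 to 10.51 with a median of 10.35 at -22 hours, and did not overlap. The change was -0.90 (SE 0.21) at 6 hours, -1.66 (SE 0.17, adjusted p 4.7e-10) at 9 hours and -1.27 (SE 0.21, adjusted p 6.26e-06) at 12 hours. At 48 hours it was still -0.58 (SE 0.17, adjusted p 0.0149), lower in 7 of 8 cows. That call was lost without cow 2 (-0.53, adjusted p 0.0537) and with the mean of its probe sets (-0.39, adjusted p 0.111). Its other probe set was lower at 6, 9 and 12 hours (-0.67, -1.56 and -0.86) and not called at 48 hours (-0.20, adjusted p 0.507). COLEC12, a membrane collectin of the scavenger receptor type, lay between 2.63 and 2.93 on all arrays, near the lower end of the scale, and was called at no hour.

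By their brightest probe sets, the proteases that travel with these lectins were lower at 9 hours too. MASP1, which activates MASP2, ran from 4.57 to 6.19 with a median of 5.56 at 9 hours, against 6.39 to 7.72 with a median of 6.85 at -22 hours, without overlap. Its change at 9 hours was -1.47 (SE 0.20, adjusted p 9.05e-08), lower in 8 of 8 cows, and at 12 hours the 4 values lay between 6.88 and 7.03, with a change of -0.05 (SE 0.24) that was not called. With the cow as a replicate block its change at 6 hours was also called (-0.68, adjusted p 0.0336), as it was without cow 2 (-0.65, adjusted p 0.0298) or cow 7 (-0.79, adjusted p 0.0261), and without cow 5 it was called higher at 48 hours (0.58, adjusted p 0.0264). The second probe set of MASP1, near the lower end at 2.67 on average at -22 hours, was called at no hour (-0.28, adjusted p 0.113, at 9 hours). MASP2, which cleaves C4 and C2, ran from 9.59 to 10.44 with a median of 9.82 at 9 hours, against 10.31 to 10.82 with a median of 10.54 at -22 hours, so the ranges overlapped, but each of the 8 cows was lower. Its change was -0.60 (SE 0.11, adjusted p 1.41e-05) at 9 hours, -0.62 (SE 0.13) at 12 hours and 0.63 (SE 0.11, adjusted p 7.86e-05) at 48 hours, and with the replicate block -0.28 (adjusted p 0.0155) at 6 hours. At 48 hours MASP2 ran from 11.01 to 11.36, above every value at -22 hours. At this hour 1 member lay wholly above its -22 hour range and 0 wholly below, beside 2.1% and 2.56% of all genes.

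The other probe sets named MASP2 went separate ways. One with a mean of 9.67 at -22 hours was higher at 3 hours (0.95, SE 0.21, adjusted p 0.00281), 6 hours (0.59, adjusted p 0.0215) and 48 hours (0.67). At 9 hours this probe set was not called (0.34, SE 0.17, adjusted p 0.0856), with 5 of 8 cows higher. Another with a mean of 5.02 was lower at 3 hours (-0.94, SE 0.24, adjusted p 0.0112), 6 hours (-0.75) and 12 hours (-1.26), and not called at 9 hours (-0.35, adjusted p 0.119). The fourth, at 2.69, was not called. The human gene is known to give a short product without the protease domain besides the full protease, and which transcript each probe set reads was not examined. When the 4 probe sets were averaged, the change of MASP2 was not called at 9 hours (-0.17, adjusted p 0.0849) or at 48 hours (0.20, adjusted p 0.087).

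**Figure D2:**
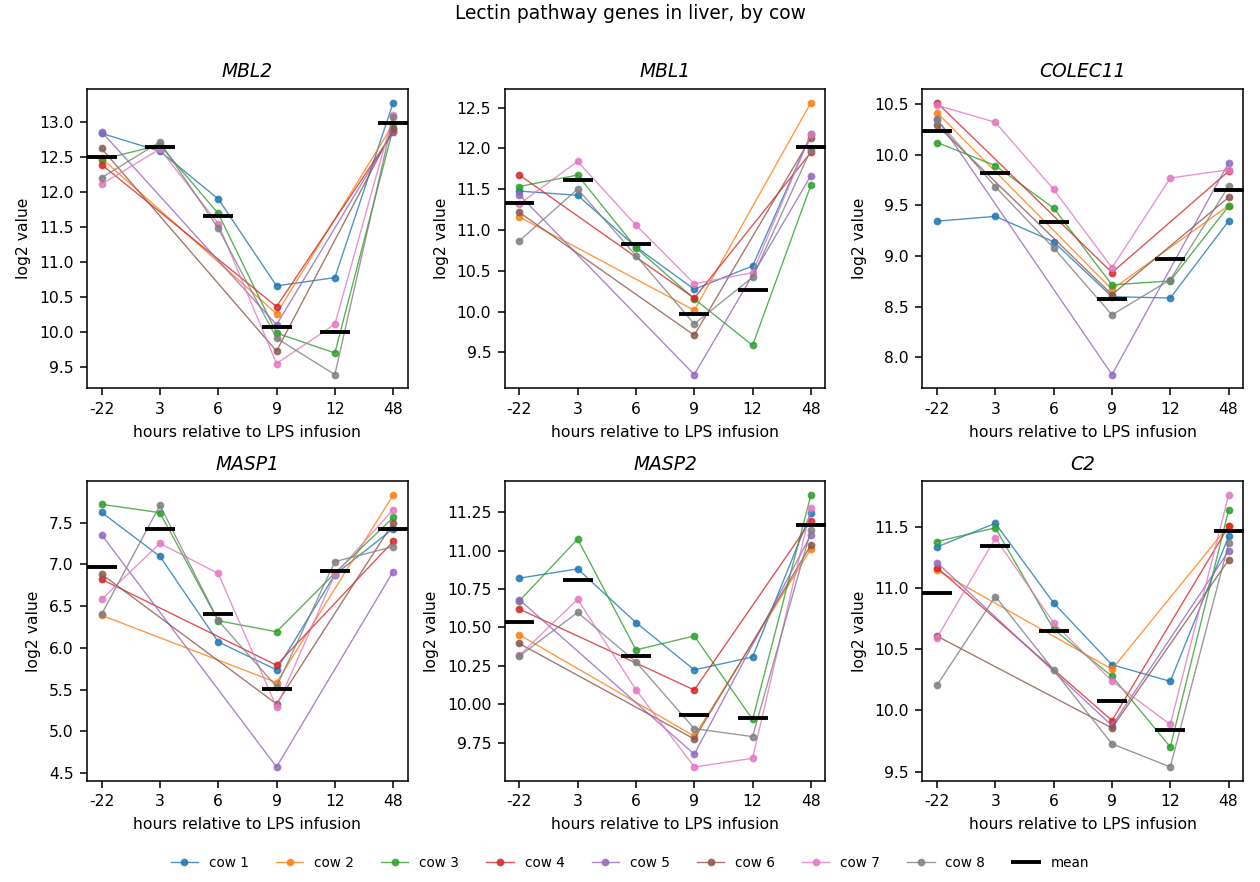
Log2 value of MBL2, MBL1, COLEC11, MASP1, MASP2 and C2 by hours relative to LPS infusion (evenly spaced, not to scale), 1 coloured line per cow and a black bar for the mean. The values dip at 9 hours in all 6 panels, and at 48 hours MASP2 lies between 11.01 and 11.36, above all its values at -22 hours.

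C2, the protease that MASP2 and C1s cut to form the classical C3 convertase, moved like the mannose-binding lectins. Its values at 9 hours ran from 9.73 to 10.37 with a median of 10.08, against 10.21 to 11.38 with a median of 11.16 at -22 hours, and each of the 8 cows was lower. The change was -0.88 (SE 0.15, adjusted p 4.08e-06) at 9 hours, -1.12 (SE 0.18, adjusted p 3.34e-06) at 12 hours and 0.51 (SE 0.15, adjusted p 0.0119) at 48 hours, when all 8 cows were higher. The second probe set was lower at 9 hours (-0.88) and higher at 48 hours (1.00), but not called at 12 hours (-0.31, adjusted p 0.577). With the cow as a replicate block C2 was already lower at 6 hours (-0.34, adjusted p 0.0419). C4A, the substrate that supplies the other convertase subunit, averaged 14.64 ± 0.26 (SD, n = 8) at -22 hours and changed by 0.10 to 0.27 at 3 to 12 hours without a call. It was higher at 48 hours (0.23, adjusted p 0.0461), a call lost without any 1 of cows 2 to 8 (adjusted p 0.0501 to 0.112). The probe set could share signal with other C4 gene copies.

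C1q, the recognition molecule of the classical pathway, is made from the chains C1QA, C1QB and C1QC, mostly by macrophages. At 9 hours C1QA was lower by a change of -0.66 (SE 0.17, adjusted p 0.00153), C1QB by -0.39 (SE 0.17, adjusted p 0.0471) and C1QC by -0.68 (SE 0.15, adjusted p 0.000184). C1QA fell in all 8 cows, to between 10.61 and 11.70 with a median of 10.99 at 9 hours, against 11.15 to 12.06 with a median of 11.74 at -22 hours, so the ranges overlapped. At 12 hours the changes were -0.65, -0.62 and -0.88 for C1QA, C1QB and C1QC, all called, and at 48 hours, between -0.23 and -0.10, none was. Several of these calls rested on few cows: C1QB at 9 hours was lost without cow 2, 3, 4, 6, 7 or 8 (adjusted p 0.0592 to 0.11), and without cow 7 C1QA at 12 hours (-0.50, adjusted p 0.134) and C1QB at 12 hours (-0.56, adjusted p 0.0884) were lost. At 6 hours C1QA (-0.76) and C1QC (-0.47) were called, but C1QC not without cow 1, 3, 4, 7 or 8 (adjusted p 0.0505 to 0.0765) or with the replicate block (-0.31, adjusted p 0.134).

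Of the 10 Kupffer cell and macrophage markers listed, 8 were measured, and 3 of them were lower and 1 higher at 9 hours. AIF1 changed by -0.84, CD5L by -0.93 and MSR1 by -2.35 at that hour. CD14 was higher at 3 hours (0.65) and 6 hours (0.72), not called at 9 hours (0.27) and lower at 12 hours (-0.42) and 48 hours (-0.57), and CD68 was called at no hour (-0.30 to 0.22). The summed level of the list, in log2, ran from 13.43 to 14.19 at 9 hours and from 13.11 to 13.85 at 12 hours, against 14.04 to 14.76 at -22 hours. Because linear levels were summed, CD5L, the brightest of these markers, weighed most in the sum. The median of CD5L was 14.08 at -22 hours, 13.06 at 9 hours and 12.67 at 12 hours. VSIG4 and ITGAM lay low, at 3.93 and 2.51 on average at -22 hours. ITGAM, the 1 marker called higher at 9 hours, ran from 2.53 to 2.86 at that hour, against 2.35 to 2.63 at -22 hours. The part of macrophages in the C1q changes was not tested.

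The proteases bound to C1q changed little. C1R fell by 0.36 (SE 0.08, adjusted p 0.000122) on the log2 scale at 9 hours and by 0.30 (adjusted p 0.0075) at 12 hours, where the call was lost without cow 3 (-0.24, adjusted p 0.0646). C1S had a change of -0.15 (adjusted p 0.0201) at 9 hours, a call lost without cow 4 or 5 (adjusted p 0.0692 and 0.0786) and without the arrays of cow 2 at 48 hours and cow 1 at -22 hours (adjusted p 0.0566), and was higher at 48 hours in all 8 cows (0.25, SE 0.05, adjusted p 0.00122). SERPING1, the C1 inhibitor that blocks C1r, C1s and the MASP proteases, averaged 14.49 at 9 hours, against 14.52 at -22 hours, and its changes, -0.05 to 0.11, were not called at any hour.

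C4-binding protein, which speeds the decay of the classical convertase, is built from C4BPA chains and a C4BPB chain, and these parted. C4BPB lay between 10.34 and 11.07 with a median of 10.79 at 9 hours and at 10.20, 10.37, 10.37 and 10.45 at 12 hours, against 11.29 to 11.96 with a median of 11.59 at -22 hours, without overlap. Its change was -0.81 (SE 0.10, adjusted p 4.52e-08) at 9 hours, -1.23 (SE 0.13, adjusted p 8.43e-10) at 12 hours and 0.03 (SE 0.10) at 48 hours, not called. C4BPA ran from 14.23 to 14.57 at 9 hours, against 14.07 to 14.66 at -22 hours, with a change of 0.00 (SE 0.07) at 9 hours and -0.16 (SE 0.08, adjusted p 0.137) at 12 hours. Without cow 7 C4BPA was called lower at 12 hours (-0.24, adjusted p 0.027), and without cow 1 higher at 48 hours (0.20, adjusted p 0.0395). At 3 hours both were higher, C4BPA by a change of 0.34 (SE 0.08, adjusted p 0.00712) and C4BPB by 0.43 (SE 0.13, adjusted p 0.0367). The C4BPA call was lost without cow 7 (0.29, adjusted p 0.0574), and the C4BPB call without cow 1, 3, 4, 6, 7 or 8 (adjusted p 0.0662 to 0.235) and with the replicate block (0.42, adjusted p 0.0607).

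FCN1, a ficolin, was higher at 3, 6, 9 and 12 hours. Its values at -22 hours ran from 3.01 to 5.01 with a median of 3.66. At 3 hours the 4 cows had 5.85, 6.43, 6.80 and 6.88, at 6 hours 7.03, 7.04, 7.12 and 7.21, at 9 hours the 8 cows ran from 6.54 to 9.46 with a median of 7.52, and at 12 hours the 4 cows had 6.75, 7.15, 8.21 and 8.62. Every value from 3 to 12 hours was above the highest at -22 hours. The log2 change was 2.73 (SE 0.44, adjusted p 5.22e-05) at 3 hours, 3.34 (SE 0.44) at 6 hours, 3.92 (SE 0.36, adjusted p 2.85e-11) at 9 hours and 3.92 (SE 0.44) at 12 hours, 15.1-fold higher at 9 hours, from a level near the lower end of the scale. At 48 hours it ran from 3.16 to 5.29, with a change of 0.63 (SE 0.36, adjusted p 0.163). Ficolin genes differ between species, and RefSeq (ARS-UCD2.0) lists FCN2 and FCNB as synonyms of this bovine gene.

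Human FCN1 is a product of monocytes and neutrophils. Of 9 neutrophil markers listed, 6 were measured and 5 of these were higher at 9 hours, among them S100A8 by 6.19, S100A9 by 6.43 and CXCR1 by 2.12. The log2 of their summed level ran from 7.68 to 8.71 at -22 hours, 10.53 to 11.85 at 3 hours, 12.23 to 12.58 at 6 hours, 12.44 to 15.02 at 9 hours, 13.28 to 14.45 at 12 hours and 9.71 to 11.91 at 48 hours. MPO, a granule enzyme, lay between 2.50 and 2.68 at 9 hours, against 2.42 to 2.52 at -22 hours. At 9 hours cow 5 had the highest FCN1 value and the highest neutrophil sum (15.02), and cow 1 the lowest of both (sum 12.44). At 6 and 48 hours cow 7 had the highest FCN1 value (7.21 and 5.29) and the lowest neutrophil sum (12.23 and 9.71). The part of neutrophils in the FCN1 change was not tested.

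**Figure D3:**
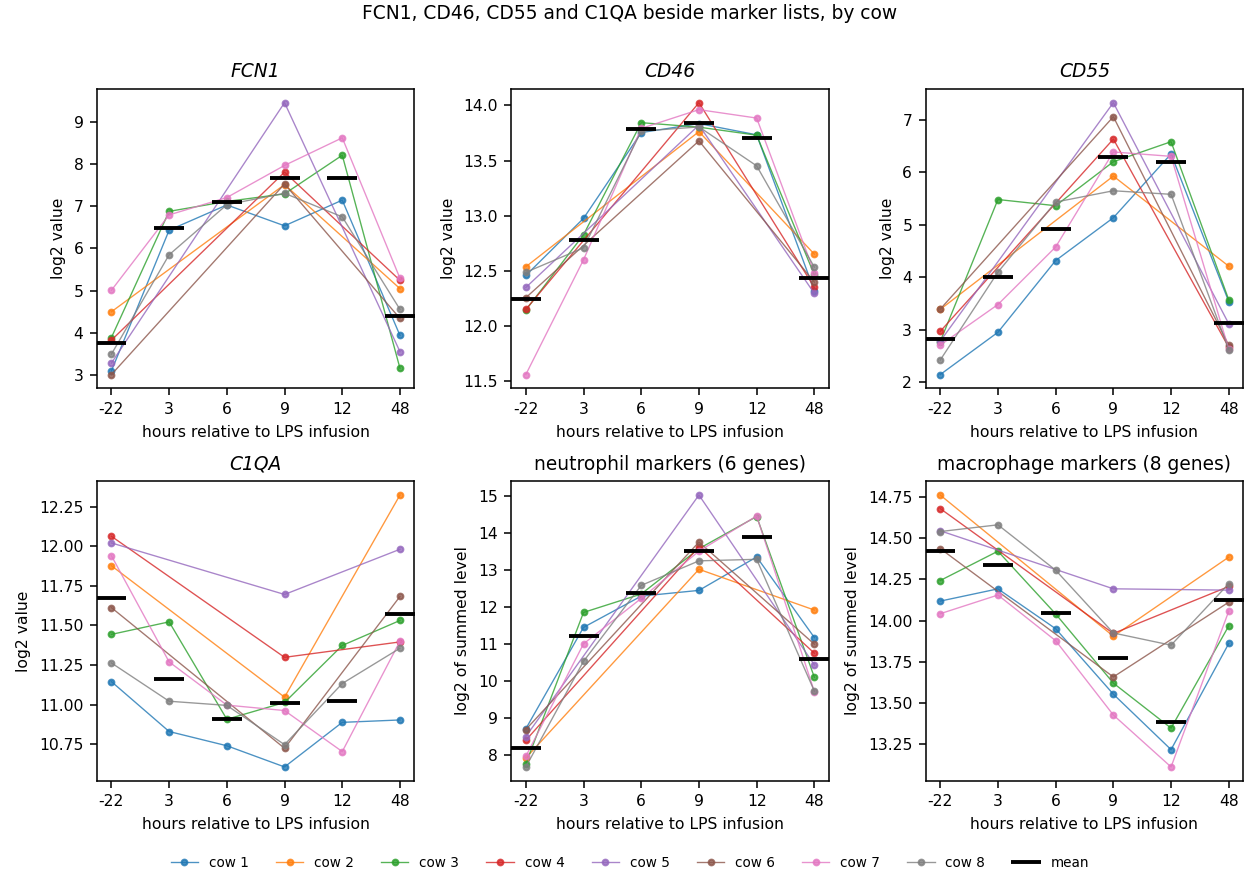
Log2 values of FCN1, CD46, CD55 and C1QA, and log2 of the summed linear level of the 6 neutrophil and the 8 Kupffer cell and macrophage markers, by hours relative to LPS infusion (evenly spaced), 1 line per cow and a black bar for the mean. FCN1 and the neutrophil sum are above their -22 hour ranges from 3 to 12 hours, and CD46 lies between 13.68 and 14.02 in the 8 cows at 9 hours. CD5L weighs most in the macrophage sum, and S100A8 and S100A12 in the neutrophil sum from 3 hours on.

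The alternative pathway changed little, apart from factor D. C3, the central component, averaged 15.78 ± 0.09 (SD, n = 8) at 9 hours, against 15.83 ± 0.17 (SD, n = 8) at -22 hours, and its brightest probe set changed by -0.08 to 0.10 over the 5 hours without a call. Without cow 7, whose value at -22 hours was the lowest, it was called lower at 6 hours (-0.14, adjusted p 0.0411) and at 9 hours (-0.11, adjusted p 0.0318). Of its other probe sets, one at 15.71 was lower at 6 hours (-0.16, adjusted p 0.0176) and one at 13.91 was higher at 48 hours (0.51, SE 0.15, adjusted p 0.0173). CFB, factor B, which pairs with C3b to form the alternative convertase, averaged 15.10 ± 0.08 at 9 hours, against 15.14 ± 0.10 at -22 hours (SD, n = 8 each), with changes of -0.06 to 0.14 and no call. Without cow 4 it was called higher at 3 hours (0.15, adjusted p 0.0418), and without cow 7 lower at 9 hours (-0.08, adjusted p 0.0482). Both lay near the top of the scale, 16.37, and whether they had room to rise on it was not tested.

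CFD, factor D, the protease that cuts factor B, was lower at 9, 12 and 48 hours. It ran from 9.89 to 10.96 with a median of 10.48 at 9 hours, against 10.31 to 11.57 with a median of 11.00 at -22 hours, and was lower in each of the 8 cows. The change was -0.54 (SE 0.21, adjusted p 0.0291) at 9 hours, -0.84 (SE 0.25, adjusted p 0.00641) at 12 hours and -0.64 (SE 0.21, adjusted p 0.0246) at 48 hours, when again each of the 8 cows was lower. The call at 9 hours was lost without cow 2, 4, 6, 7 or 8 (adjusted p 0.0554 to 0.0736) and that at 48 hours without cow 2 or 4 (adjusted p 0.0599 and 0.0693), while with the cow as a replicate block both held. At 12 hours each of the 4 cows had fallen by less than the fitted change (own changes -0.81 to -0.04), the block gave -0.56 (adjusted p 0.000662), and in a fit of the 4 cows with 6 biopsies alone no call of CFD held: -0.39 (adjusted p 0.216), -0.50 (adjusted p 0.148) and -0.61 (adjusted p 0.181) at 9, 12 and 48 hours. CFI, factor I, which inactivates C3b and C4b, was lower by changes of -0.23 (SE 0.06, adjusted p 0.00153) at 9 hours and -0.30 (SE 0.07, adjusted p 0.000845) at 12 hours. CFP, properdin, which stabilises the alternative convertase and comes from leukocytes, was called at 6 hours alone (-0.50, adjusted p 0.0274, where the 4 cows' own changes were -0.48 to -0.10), a call lost without cow 3 or 4 (adjusted p 0.0907 and 0.0641) and with the replicate block (-0.28, adjusted p 0.144), under which it was called at 9 hours (-0.31, adjusted p 0.0309), as it was without cow 5 (-0.39, adjusted p 0.0191). Macrophages can make both properdin and factor D, and the macrophage sums given for C1q hold here too: their part was not tested.

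In the terminal pathway the subunits of C8 fell together. C8G, the lipocalin subunit, lay between 10.95 and 11.31 with a median of 11.09 at 9 hours and at 10.49, 10.53, 10.93 and 11.13 at 12 hours, against 11.81 to 12.65 with a median of 12.19 at -22 hours. Its change was -0.69 (SE 0.12, adjusted p 1.6e-05) at 6 hours, -1.13 (SE 0.10, adjusted p 1.2e-11) at 9 hours, -1.46 (SE 0.12, adjusted p 6.76e-12) at 12 hours and -0.39 (SE 0.10, adjusted p 0.00452) at 48 hours. C8B ran from 12.78 to 13.30 with a median of 12.88 at 9 hours, against 13.48 to 14.10 with a median of 13.89 at -22 hours, also without overlap. It changed by -0.48 (SE 0.11), -0.90 (SE 0.09, adjusted p 3.67e-10) and -0.97 (SE 0.11, adjusted p 9.39e-09) at 6, 9 and 12 hours, and by 0.07 (SE 0.09), not called, at 48 hours. C8A ran from 12.61 to 13.58 with a median of 13.17 at 9 hours, against 13.56 to 14.14 with a median of 13.86 at -22 hours, lower in each of the 8 cows though the ranges overlapped, and changed by -0.75 (SE 0.11, adjusted p 3.92e-07) at 9 hours and -0.72 (SE 0.13, adjusted p 2.83e-05) at 12 hours. With the replicate block C8A was lower at 6 hours as well (-0.35, adjusted p 0.00784), and so it was without cow 6 (-0.31, adjusted p 0.0383). The second probe set of C8B was lower at 9 hours (-0.65, adjusted p 0.00711), not called at 6 or 12 hours, and higher at 48 hours (0.79, adjusted p 0.0051).

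The other components of the attack complex followed several courses. C9, which forms the pore, had changes of -0.34 (SE 0.07, adjusted p 3.86e-05) at 9 hours and -0.40 (SE 0.08, adjusted p 0.000107) at 12 hours, and C6 of -0.34 (SE 0.09, adjusted p 0.0016) and -0.44 (SE 0.11, adjusted p 0.000988). In a limma fit of the 4 cows with 6 biopsies alone, neither was called at 9 hours (C9 -0.17, adjusted p 0.152, and C6 -0.22, adjusted p 0.0767). The second probe set of C6 was not called at any hour, and with the mean of both the C6 change was not called at 9 hours (-0.48, adjusted p 0.241) or 12 hours (-0.05, adjusted p 0.941). At 48 hours C6 was called higher only with the replicate block (0.16, adjusted p 0.0477) and after median centring (0.29, adjusted p 0.00287). C5, whose cleavage starts the terminal pathway, was not called until 48 hours, when it was higher in all 8 cows (0.43, SE 0.09, adjusted p 0.00138). C7 varied widely between cows: at 48 hours it ran from 6.97 to 8.82 with a median of 8.01, against 5.41 to 7.56 with a median of 6.73 at -22 hours. Each of the 8 cows was higher than its own -22 hour value, with a change of 1.24 (SE 0.40, adjusted p 0.0254), a call lost without cow 3 (1.21, adjusted p 0.0736) or cow 4 (1.20, adjusted p 0.0613). With the replicate block the adjusted p of this change was 8.07e-05.

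The fluid-phase inhibitors of the attack complex stayed within narrow bounds. VTN, vitronectin, was lower by changes of -0.16 (SE 0.05, adjusted p 0.0107) at 6 hours, -0.28 (SE 0.04, adjusted p 9.95e-07) at 9 hours and -0.33 (SE 0.05, adjusted p 1.88e-06) at 12 hours. The first of these calls was lost without cow 1 (-0.14, adjusted p 0.0629). CLU, clusterin, was called only at 48 hours (0.23, adjusted p 0.0307), and not without cow 1, 2, 4, 5 or 7 (adjusted p 0.0533 to 0.0765).

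**Figure D4:**
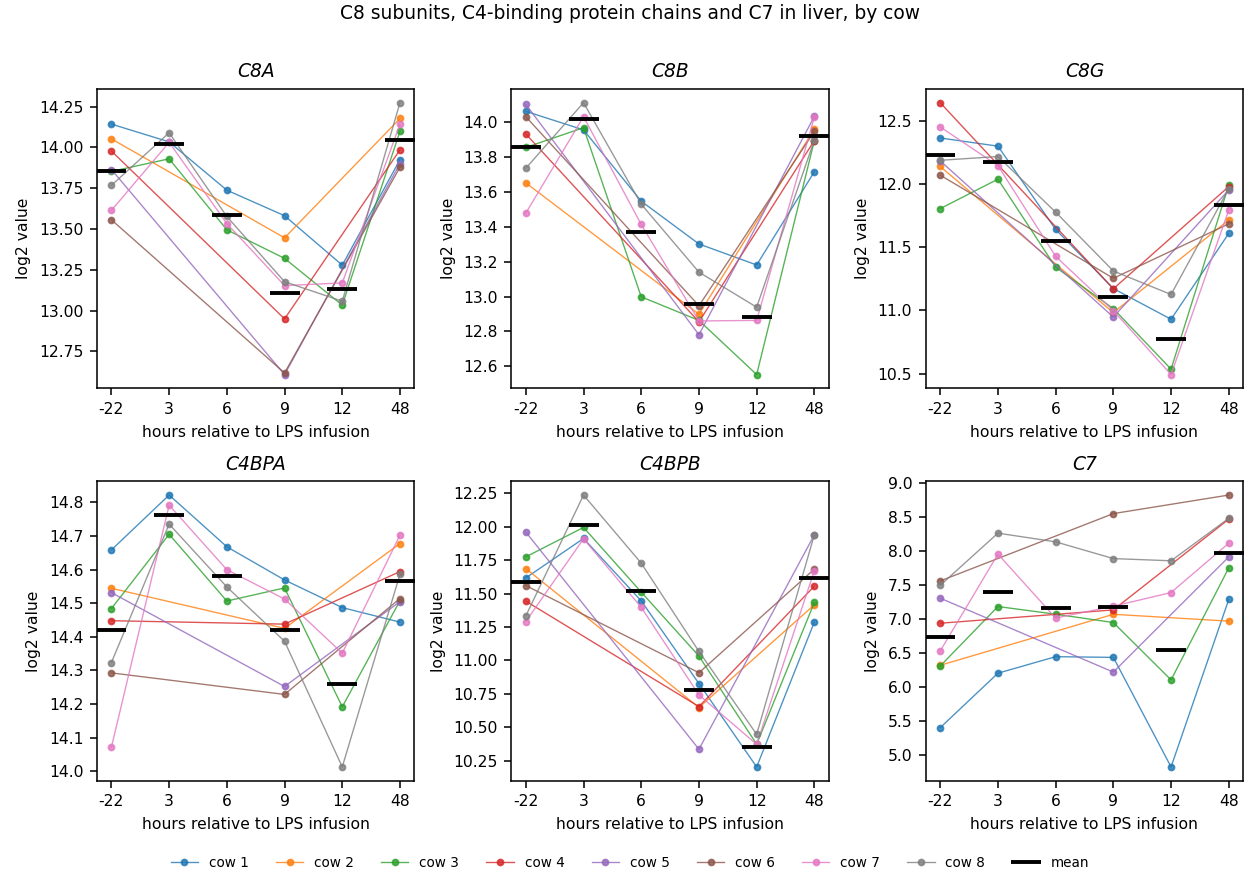
Log2 value of C8A, C8B, C8G, C4BPA, C4BPB and C7 by hours relative to LPS infusion (evenly spaced), 1 line per cow and a black bar for the mean. The C8 subunits and C4BPB are low at 9 and 12 hours, with C8G at 12 hours between 10.49 and 11.13, while C4BPA stays between 14.01 and 14.82 at all hours.

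The membrane regulators went the other way. CD46, a cofactor through which factor I destroys C3b and C4b on host cells, ran from 11.56 to 12.54 with a median of 12.30 at -22 hours. It had 12.60, 12.71, 12.83 and 12.98 at 3 hours, 13.75, 13.77, 13.79 and 13.84 at 6 hours, 13.68 to 14.02 with a median of 13.81 at 9 hours and 13.45, 13.73, 13.73 and 13.89 at 12 hours. All values from 3 to 12 hours exceeded the highest at -22 hours. The change was 0.54 (SE 0.11, adjusted p 0.00209) at 3 hours, 1.55 (SE 0.11, adjusted p 6.07e-13) at 6 hours, 1.59 (SE 0.09, adjusted p 6.48e-16) at 9 hours and 1.46 (SE 0.11, adjusted p 1.71e-12) at 12 hours, or 3.02-fold at 9 hours. At 48 hours it was 0.19 (SE 0.09, adjusted p 0.098). The second probe set, at 7.34 on average at -22 hours, rose by 2.57 (SE 0.32), 2.62 (SE 0.26) and 3.34 (SE 0.32) at 6, 9 and 12 hours and was still higher at 48 hours (1.40, SE 0.26, adjusted p 0.000263).

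CD55, decay-accelerating factor, which splits the C3 convertases on host cells, started near the lower end of the scale, at 2.14 to 3.39 with a median of 2.78 at -22 hours. It had 2.95, 3.48, 4.10 and 5.48 at 3 hours, 4.32, 4.58, 5.36 and 5.43 at 6 hours, 5.13 to 7.33 with a median of 6.30 at 9 hours and 5.58, 6.31, 6.35 and 6.58 at 12 hours. All values from 6 to 12 hours were above the range at -22 hours, and at 3 hours the lowest lay inside it. The change was 2.10 (SE 0.39, adjusted p 3.2e-05) at 6 hours, 3.47 (SE 0.32, adjusted p 3.22e-11) at 9 hours and 3.38 (SE 0.39, adjusted p 8.17e-09) at 12 hours, an 11.1-fold rise at 9 hours. At 3 hours the change of 1.18 (SE 0.39, adjusted p 0.0693) was not called, but it was with the replicate block (1.45, adjusted p 0.0147) and without cow 1 (1.44, adjusted p 0.0311) or cow 2 (1.26, adjusted p 0.0494). Both genes are expressed by many cell types, leukocytes included, and 3 to 5 of the 6 neutrophil markers were higher over the same hours. The part of leukocytes in these changes was not tested. At 48 hours CD55 lay between 2.62 and 4.21 (change 0.31, SE 0.32, adjusted p 0.465).

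At 48 hours the higher members were MBL1, MBL2, MASP2, C1S, C2, C4A, C5, C7 and CLU. COLEC11, CFD and C8G were lower. Centring each array on the median of its brighter probe sets added 0.13 to every change at 48 hours, moved the median over all genes to 0.14, and raised the counts to 20 members higher and 3 lower, beside 34.7% and 10.3% of all genes.

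Several members lie side by side in the genome (ARS-UCD2.0, RefSeq, used for gene order only), with no other protein-coding gene between them. The change of both genes of each such pair was compared within cows by an exact two-sided sign-flip test over 8 cows, at 9 and 48 hours, in 10 comparisons whose smallest possible p is 0.00781. On chromosome 16, C4BPB changed by 0.81 less than C4BPA at 9 hours, a difference of -0.81 ± 0.30 (SD) with C4BPB lower in 8 of 8 cows (p 0.00781, adjusted p 0.013). On chromosome 23, CFB differed from C2 by 0.84 ± 0.26 (SD) at 9 hours, higher in all 8 cows, and by -0.48 ± 0.38 at 48 hours, lower in all 8 (both p 0.00781, adjusted p 0.013, exact test). C2 alone dipped and overshot, and CFB hardly moved. In both pairs the gene that moved less was the brighter at -22 hours: CFB averaged 15.14 and C2 10.96, C4BPA 14.42 and C4BPB 11.58. The part of brightness in these differences was not tested.

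For the other neighbours the differences were small. C8B and C8A on chromosome 3 differed by -0.15 ± 0.14 (SD) at 9 hours and C1R and C1S on chromosome 5 by -0.21 ± 0.14 at 9 hours and -0.15 ± 0.10 at 48 hours, each with the first gene lower in 8 of 8 cows (p 0.00781, adjusted p 0.013, exact test). C1QC and C1QA on chromosome 2 differed by -0.02 ± 0.12 at 9 hours (exact p 0.594). The remaining adjusted p were 0.0558 for C1QC and C1QA, 0.137 for C8B and C8A and 0.2 for C4BPB and C4BPA, all at 48 hours. These comparisons were added after the values were seen.

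**Figure D5:**
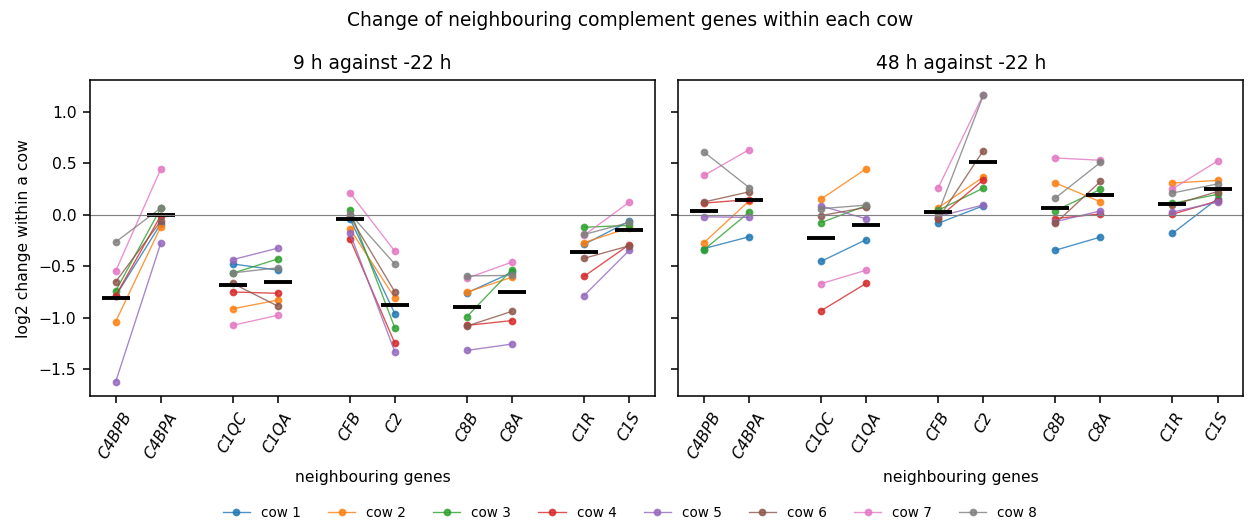
Log2 change within each cow at 9 hours and at 48 hours against -22 hours (vertical axis) for the 5 pairs of neighbouring genes, joined by 1 line per cow, with black bars for the mean of the 8 cows. C4BPB lies below C4BPA in all 8 cows at 9 hours, and C2 lies below CFB at 9 hours and above it at 48 hours in all 8.

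Successive hours were compared as well, where a probe set was differentially expressed (DE) when its Bonferroni-adjusted p was below 0.01 in 1 or more of 5 comparisons. By this rule 12 of the 47 member probe sets (25.5%), of 11 genes, were DE, beside 22.2% of all probe sets. All 12 were DE between 12 and 48 hours, and 9 of them rose while 3 fell. The share of all probe sets that rose or fell in that comparison alone was not counted, so these counts stand without a background. MBL2 rose most, by 3.00 (SE 0.18, Bonferroni-adjusted p 1.66e-12), and C2, MASP2, both probe sets of MBL1, C4BPB, C8A, C8B and C8G rose by 0.91 to 1.76. CD46, CD55 and FCN1 changed by -1.26, -3.08 and -3.29. CD46 was also DE between 3 and 6 hours (1.01, SE 0.13), and MBL2 between 6 and 9 hours (-1.59, SE 0.18).

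The 9 hour change was compared between the 4 cows with 6 biopsies, which had been sampled at 3 and 6 hours, and the 4 cows with 3 biopsies. No probe set of 24128 passed (0 at an adjusted p of 0.05 in limma), with 537 at an unadjusted p below 0.05, and with the cow as a replicate block 0 passed and 936 had an unadjusted p below 0.05. Among the 33 members 5 had an unadjusted p below 0.05 in the fit without the block, a larger share than the 537 of 24128 probe sets. Over all 33 members the difference of the change, cows with 6 minus cows with 3 biopsies, ran from -1.02 to 0.49.

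Related genes outside the member list, from a list of 32 pattern-recognition and complement-associated genes of which 19 were measured, gave 7 higher (36.8%) and 5 lower (26.3%) at 9 hours, shares near the 36.6% and 28.4% of all genes. PTX3, a pentraxin that binds C1q, had 7.53 on average at 3 hours and 11.30 at 6 hours, against 2.44 at -22 hours, and was back at -0.04 at 48 hours. The bovine collectins CL43 and CGN1 (conglutinin), both of which belong to the cattle family of collectins, fell like MBL1 and MBL2 at first: CL43 changed by -1.36 (SE 0.19, adjusted p 2.72e-07) at 9 hours and -1.53 (SE 0.24) at 12 hours, and CGN1 by -0.94 (SE 0.27) and -1.31 (SE 0.33). CGN1 was lowest at 48 hours, with -1.43 (SE 0.27, adjusted p 0.000267), when MBL1 and MBL2 were above -22 hours, and the list has CL43 at -0.48, not called, at that hour. PROS1, protein S, which circulates bound to the chain encoded by C4BPB, was lower at 9 hours (-0.46, SE 0.10, adjusted p 0.000161) and higher at 48 hours (0.45, SE 0.10, adjusted p 0.00125).

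Of the remaining genes of that list, APCS, a pentraxin known as serum amyloid P, was lower at 9 hours (-0.99, SE 0.15), and CRP was higher at all 5 hours by 0.27 to 0.46, with 0.39 (SE 0.10, adjusted p 0.000755) at 9 hours. Its second probe set was not called at 3 hours (0.51, adjusted p 0.534) and was higher at the others, by 0.85 (SE 0.34) to 1.57 (SE 0.41). CPN1, the carboxypeptidase that trims the anaphylatoxins, was higher by 1.47 (SE 0.27) at 6 hours and 1.55 (SE 0.22, adjusted p 7.29e-06) at 48 hours. C1QBP, a mitochondrial protein that can bind C1q, rose by up to 1.76 at 12 hours, the chaperone CALR by up to 2.23 at 12 hours, and SFTPA1, a surfactant collectin, by up to 1.01 at 48 hours. CD93 was lower at 6 hours (-1.16), and CR2, ITGAM, C5AR2 and SFTPD had calls of at most 0.50 in size.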

How the data were processed

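Biotin-labelled complementary RNA made from liver RNA was hybridised to Affymetrix bovine arrays, 1 array for each cow and time point. The deposited table holds log2 values per probe set that the authors background-corrected, normalized and summarised with GCRMA (its version is not given in the sources used here). Arrays carry no read depth, so their number, 4 or 8 cows an hour, limits the precision. Genes were named through the platform annotation: 13292 probe sets named 1 gene, and 10724 of 24128 were unnamed here. Gene order came from RefSeq.

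The values were tested with limma (3.58.1, R 4.3.3): 1 mean per hour, no cow term, all 36 arrays, Benjamini-Hochberg adjustment over all 24128 probe sets at 0.05. Successive hours were compared with Bonferroni adjustment at 0.01. Tables and sign-flip tests used Python 3.11.15. Within each role group, full values are given for up to 5 called members with the largest changes, for members whose probe sets disagree and for the brightest. Members and lists were chosen with earlier results of these data known.

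The cow number pairs samples from the same animal: deviations from the hour means correlated by 0.316 on average (0.116 to 0.505) between -22 and 48 hours within cows, and by -0.0446 between different cows. Subtracting the hour means ties the value between different cows to that within cows, so it is no separate evidence of the pairing. Alternatives were the cow as a replicate or random block, only the 4 cows with all hours, leaving out each cow or 2 arrays, array weights, median centring, a filter keeping 12479 brighter probe sets, a trended robust prior, and averaging the probe sets that name a gene.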

Additional observations from a re-analysis of the deposited data

Results flagged for a closer look

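In each hour's group of 4 or 8 cows, the cow farthest from the others was compared with Dixon's 95% critical value. Over 198 groups, 23 had a cow past it, where about 9.9 are expected by chance. At -22 hours, cow 7 was the lowest for C3 (15.43, the others 15.80 to 16.00), CD46 (11.56, the others 12.15 to 12.54), CFB (14.91, the others 15.12 to 15.25) and CFI (14.18, the others 14.53 to 14.72), and its array had the lowest median of all, 4.15. Cow 1 at -22 hours was highest for C1R (14.35) and lowest for COLEC11 (9.34, the others 10.12 to 10.51), on the array that also stood apart along the 9 hour change.

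At 3 hours, C1R of cow 8 was 14.19, CFD of cow 1 was 10.06 and SERPING1 of cow 8 was 14.20, each the lowest of 4 cows. At 6 hours, C1QB of cow 1 was the lowest at 10.53. At 9 hours cow 5 had the highest CFP, 7.21 (the others 6.02 to 6.38), and the lowest COLEC11, 7.83 (the others 8.42 to 8.88), besides the highest FCN1.

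At 12 hours, C1QB of cow 8 was the highest at 10.91 (the others 10.38 to 10.44), COLEC11 of cow 7 the highest at 9.77, MASP1 of cow 8 the highest at 7.03, MBL1 of cow 3 the lowest at 9.59 (the others 10.42 to 10.56), SERPING1 of cow 8 the lowest at 14.39 and COLEC12 of cow 1 the lowest at 2.63. At 48 hours cow 2, whose array lay nearest to the 9 hour state, was highest for C5 (14.85) and C6 (15.16). C8B of cow 1 (13.71) and CFI of cow 6 (14.41) were lowest at 48 hours, and COLEC12 of cow 1 (2.93) was highest.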

How the results depend on the processing

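Over 17 alternatives, 2800 values of a member gene at an hour were recomputed: 2644 kept their side of the threshold, 90 lost the call and 66 gained it. No called value changed sign (0), but 63 values that were not called under either setting did, 5 of them after median centring. Of 72 called values 55 were kept whichever cow was left out, and 41 held in every alternative. With the 4 cows that had all hours, 3 genes were higher and 0 lower at 48 hours (9 and 3 with all cows), 13 lower at 9 hours (20), and 7 probe sets were DE between successive hours (12); this setting uses fewer arrays. At the hours sampled in only these cows it lost C4BPA at 3 hours, MBL1, C1QC and CFP at 6 hours, and C1QA, C1QB, CFI and CFD at 12 hours. The calls it lost at 9 hours were those of C1QB, C1R, C1S, C6, C9, CFD and CFI. In this limma fit C1R changed by -0.20 (adjusted p 0.0687), C1S by -0.03 (adjusted p 0.708) and CFI by -0.13 (adjusted p 0.234) at 9 hours. Median centring gave 20 genes higher at 48 hours. Array weights gave 1 gene lower at 3 hours (0), 14 at 6 hours (9) and 7 at 48 hours (3). Benjamini-Hochberg at 0.01 in place of Bonferroni gave 28 DE member probe sets. Apart from median centring, the shares of all genes or probe sets are not given for these alternatives or those below. Their counts therefore describe the members alone, without a background. The causes of the shifts with array weights were not tested.

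Without 1 cow in turn, 2 to 5 genes were higher at 3 hours (2 without cow 7), 3 at 6, 9 and 12 hours and 6 to 9 at 48 hours, while 6 to 10 were lower at 6 hours, 17 to 20 at 9 hours, 17 to 18 at 12 hours and 1 to 3 at 48 hours (1 without cow 2), and 9 to 12 probe sets were DE. With the cow as a replicate block, which uses the pairing of samples by animal, 4, 3, 3, 3 and 10 genes were higher and 0, 11, 21, 18 and 3 lower at 3, 6, 9, 12 and 48 hours, and 13 probe sets were DE. The calls it changed stand beside their genes, and it changed no other call of a member. At 3, 6 and 12 hours there are 4 cows, and genes near the lower end of the scale, such as COLEC12, or near its top, such as C3, limit what a change could show.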
